A study of Homo sapiens with 15 samples.

Results

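Interferon-stimulated genes were followed in MDA-MB-231, a long-established line of human breast cancer cells, after knockdown of the Hippo pathway coactivators YAP, TAZ or both. The genes were chosen by symbol from a list of 44 genes of the antiviral programme, made with earlier results of these data known. Of the 44, 43 were among the 18858 genes of the deposited count table. The remaining listed gene, CXCL10, was not analysed here. They comprised 9 sensors of foreign RNA, 4 STAT and IRF factors, 4 genes of the ISG15 system, 3 genes of the PARP9 group (PARP9, its partner DTX3L and PARP14), 4 IFIT genes, 4 IFITM and BST2 genes, 8 other antiviral effectors and 7 other induced genes. Cells were left untransfected (Control) or transfected with non-targeting siRNA (siControl), with a pool against YAP1 (siYAP), with a pool against WWTR1, the gene for TAZ (siTAZ), or with both pools (siYAP+TAZ). The transfected cells were kept for 48 h of knockdown, and cells of all groups then spent 5 to 6 h on gelatin before RNA was taken. The study gives the same concentration for each pool, so siYAP+TAZ cells would have received more siRNA in total than any other group. Whether control siRNA made up the difference in the other groups is not stated. A larger amount in siYAP+TAZ cannot be told apart from the co-knockdown. All groups are cultures of a single cell line, the knockdowns are transient, and n was 3 libraries per group.

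Interferon-stimulated genes are switched on when secreted interferons bind their receptors and the receptor-bound JAK kinases activate STAT factors, which together with IRF factors bind a short promoter element, the interferon-stimulated response element. Their products detect viral RNA in the cytoplasm, block the entry or replication of viruses, degrade RNA or attach the ubiquitin-like protein ISG15 to other proteins. Some tumour cells carry part of this programme without added interferon. YAP and TAZ act in a different pathway, as coactivators of TEAD transcription factors.

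The siRNA sequences of the pools define the groups and are shown as the study lists them, with 1 sequence for the negative control and 4 for each targeted gene. Each has 19 bases.
Negative control: ugguuuacaugucgacuaa
YAP1 siRNA 1: gcaccuaucacucucgaga
YAP1 siRNA 2: gaacauagaaggagaggag
YAP1 siRNA 3: ccaccaagcuagauaaaga
YAP1 siRNA 4: ggucagagauacuucuuaa
TAZ siRNA 1: aagccuagcucguggcgga
TAZ siRNA 2: aggaacaaacguugacuua
TAZ siRNA 3: ggacaaacacccaugaaca
TAZ siRNA 4: gacaugagauccaucacua

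Promoters were examined for what the genes share in sequence. RefSeq windows on GRCh38.p14, from 250 bases before to 50 bases after a start site, were at hand for 34 of the 43 genes. The letters GAAA, any 2 bases and GAAA again, the core of the interferon-stimulated response element, were searched on both strands, and overlapping matches were allowed. They occurred in 23 of the 34 genes, against 4.38% of 27305 genes with a window and 3.57% of 35116 windows. Genes that rose in siYAP+TAZ held them in 13 of 19 cases, and genes that did not pass the test in 10 of 15. The difference between these shares was not tested. TTCNNNGAA, the letters of the gamma-activated sequence, read the same on both strands and were found in 7 of the 19 and 4 of the 15 (9.38% of all genes with a window). GGAATG, the TEAD recognition letters, searched on both strands, was found in 2 of the 19 and 6 of the 15 (16.73% of all genes). Matches of different motifs were counted independently of whether their letters overlapped. A match describes letters and not a bound site. PARP9 and DTX3L, which are transcribed in opposite directions from neighbouring start sites, had the same match at chr3:122564332-122564341 in their windows.

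Stretches around the matches are printed for 6 genes that rose in siYAP+TAZ and for 3 that did not pass the test, to show the element on both sides of the call. They read from 5′ to 3′ on the strand of the gene, with every match to the response element core upstream of the start site, on either strand, in capitals. ISG15 (chr1:1013364-1013419, plus strand), BST2 (chr19:17405725-17405780, minus strand), IFI6 (chr1:27672256-27672368, minus strand), IFI44L (chr1:78620264-78620404, plus strand), ISG20 (chr15:88638927-88638976, plus strand) and PARP14 (chr3:122680790-122680838, plus strand) rose.
ISG15: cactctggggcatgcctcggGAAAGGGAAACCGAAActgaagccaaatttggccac
BST2: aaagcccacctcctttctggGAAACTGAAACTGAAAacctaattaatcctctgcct
IFI6: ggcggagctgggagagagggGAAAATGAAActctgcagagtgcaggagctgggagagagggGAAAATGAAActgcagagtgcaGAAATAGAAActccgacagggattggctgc
IFI44L: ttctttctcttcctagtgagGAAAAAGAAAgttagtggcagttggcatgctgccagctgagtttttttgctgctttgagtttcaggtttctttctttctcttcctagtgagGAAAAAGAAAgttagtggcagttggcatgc
ISG20: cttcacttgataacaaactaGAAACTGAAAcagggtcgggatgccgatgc
PARP14: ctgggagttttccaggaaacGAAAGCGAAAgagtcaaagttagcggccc
The matches of ISG15 and of BST2 overlap by 4 bases, so that GAAA is repeated at short intervals. IFIT1 (chr10:89392487-89392549, plus strand), IFIT5 (chr10:89414503-89414567, plus strand) and HERC5 (chr4:88456974-88457074, plus strand) carried 2, 2 and 3 matches that end before the start site, and did not pass the test. A further match of IFIT5 runs across its start site and is not printed.
IFIT1: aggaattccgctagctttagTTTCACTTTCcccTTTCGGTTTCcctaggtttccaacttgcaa
IFIT5: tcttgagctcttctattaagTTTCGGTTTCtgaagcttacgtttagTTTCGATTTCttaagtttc
HERC5: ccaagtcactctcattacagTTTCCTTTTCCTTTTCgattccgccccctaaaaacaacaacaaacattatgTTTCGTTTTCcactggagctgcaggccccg

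Total counts on genes ranged from 18696737 to 30107312 per library, with a median of 22902846. VIM, CD44, AXL and CAV1, which mark this mesenchymal-like line, summed to 104607 to 106845 normalized counts in Control, 100809 to 107841 in siControl, 98981 to 100036 in siYAP, 104103 to 113736 in siTAZ and 87324 to 95652 in siYAP+TAZ, below every other group. AXL and CAV1 fell in siYAP+TAZ against siControl, with log2 fold changes of -0.51 ± 0.08 (SE, adjusted p = 0.000199 by edgeR) and -0.35 ± 0.09 (SE, adjusted p = 0.0065 by edgeR), while VIM and CD44 did not pass the test. Of the genes the line should have little of, PGR, which the line lacks, had at most 8.32. EPCAM, an epithelial gene listed as low or absent in the line, had 244 to 407. The 3 of 5 listed leukocyte markers that were in the table summed to 20.4 to 25.9 normalized counts in siControl, 35 to 43.1 in siYAP, 28.4 to 33.4 in siTAZ and 47.3 to 49.5 in siYAP+TAZ. CD14 made up most of these sums and rose in siYAP+TAZ, with a log2 fold change of 1.20 ± 0.24 (SE, adjusted p = 0.00197 by edgeR). LYZ, at 0 to 14 reads per library, also averaged higher in siYAP+TAZ (8.34) than in siControl (2.92), with overlapping libraries. The defining marker PTPRC had at most 6 reads in any library and was at 0 in Control 16, siYAP 28, siTAZ 24 and siYAP+TAZ 20. The 2 of 3 listed fibroblast markers in the table, COL1A1 and LUM, summed to 249 to 338 in Control, 233 to 472 in siControl, 388 to 395 in siYAP, 411 to 667 in siTAZ and 473 to 530.4 in siYAP+TAZ, nearly all from COL1A1. COL1A1 did not pass against siControl, at 0.42 ± 0.22 (SE, adjusted p = 0.218 by edgeR) in siYAP+TAZ, but rose against Control, at 0.77 ± 0.22 (SE, adjusted p = 0.0269 by edgeR). The part of these markers in the results was not tested. YAP1 had 4431, 4333 and 4202 normalized counts in siControl, 1013, 2764 and 761 in siYAP and 2240.2, 2202 and 1796 in siYAP+TAZ, which lay below siControl without passing the test (edgeR adjusted p = 0.0992 and 0.0723). WWTR1 had 1995, 1850.2 and 1579 in siControl, 828, 254 and 521 in siTAZ (edgeR adjusted p = 0.0187) and 1133, 1123 and 1284 in siYAP+TAZ (edgeR adjusted p = 0.199). All siYAP+TAZ libraries had more WWTR1 than any siTAZ library, and their YAP1 lay between the lowest and highest siYAP libraries. Libraries 26 to 30, 1 of each group, deviated alike from their group means (correlations of 0.546 to 0.68 over genes), and the counts over the 43 genes, the classes and the pathway lists are given with and without them. They were not the most distant library in every group. By the chi-square of counts per degree of freedom, siControl 22 was closer to siControl 27 (15.99) than to siControl 17 (20.67), and siTAZ 24 was closer to siTAZ 29 (13.82) than to siTAZ 19 (18.51).

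Values below are normalized counts, which are read counts divided by the TMM-scaled library size relative to the mean library. They are listed in the order of library numbers, 16, 21 and 26 for Control, 17, 22 and 27 for siControl, 18, 23 and 28 for siYAP, 19, 24 and 29 for siTAZ, and 20, 25 and 30 for siYAP+TAZ. Differences between groups are log2 fold changes with their standard error (SE) from edgeR's quasi-likelihood test over all 15 libraries. A gene was taken as changed when its Benjamini-Hochberg adjusted p, taken over all 18858 genes, did not exceed 0.05. The study describes the sequenced samples as separate repeats of the whole experiment, but the sources used here do not say which libraries belong to the same repeat. Comparisons with siControl share its 3 libraries. The cells were measured in bulk, so a higher share of expressing cells and more RNA per cell cannot be told apart.

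In siYAP+TAZ, 24 of the 43 interferon-stimulated genes were higher than in siControl and none was lower at this threshold. Among all genes tested, 9.97% rose and 8.39% fell. As the list was chosen with earlier results of these data known, these shares describe the genes and are no independent comparison. Of the 14528 genes averaging 10 or more normalized counts, 12.1% rose. At an unadjusted p under 0.05 there were 28 of the 43, against 30.3% of all genes in either direction. Of the 24, 8 genes (CMPK2, IFI44L, MX2, ISG20, TRIM22, SAMD9L, OAS2 and MX1) also had a log2 fold change of at least 1, the size threshold in the study's methods, as did 3.14% of all genes in that direction. The median log2 fold change was 0.57 over the 43 genes and -0.0048 over all genes. In 27 of the 43, every siYAP+TAZ library was above every siControl library, as in 18.2% of all genes. DDX58, OAS2, IRF7, IFI6, MX2 and TRIM22 were higher in the 3 siYAP+TAZ libraries than in all 12 other libraries, which held for 14.0% of the genes of the programme and 5.1% of all genes. Without libraries 26 to 30, 25 of the 43 rose and IFIT5 fell, while 19.9% of all genes passed in either direction. CMPK2 and IFI44 were then lost, and IFIH1, OAS3 and IFITM3 were gained. The count was lowest, 16, without siControl 22, where 13.3% of all genes passed in either direction. By class, 4 of 9 sensors, 2 of 4 STAT and IRF factors, 2 of 4 genes of the ISG15 system, the 3 genes of the PARP9 group, 4 of 4 IFITM and BST2 genes, 6 of 8 other antiviral effectors and 4 of 7 other induced genes rose without libraries 26 to 30.

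**Figure D1:**
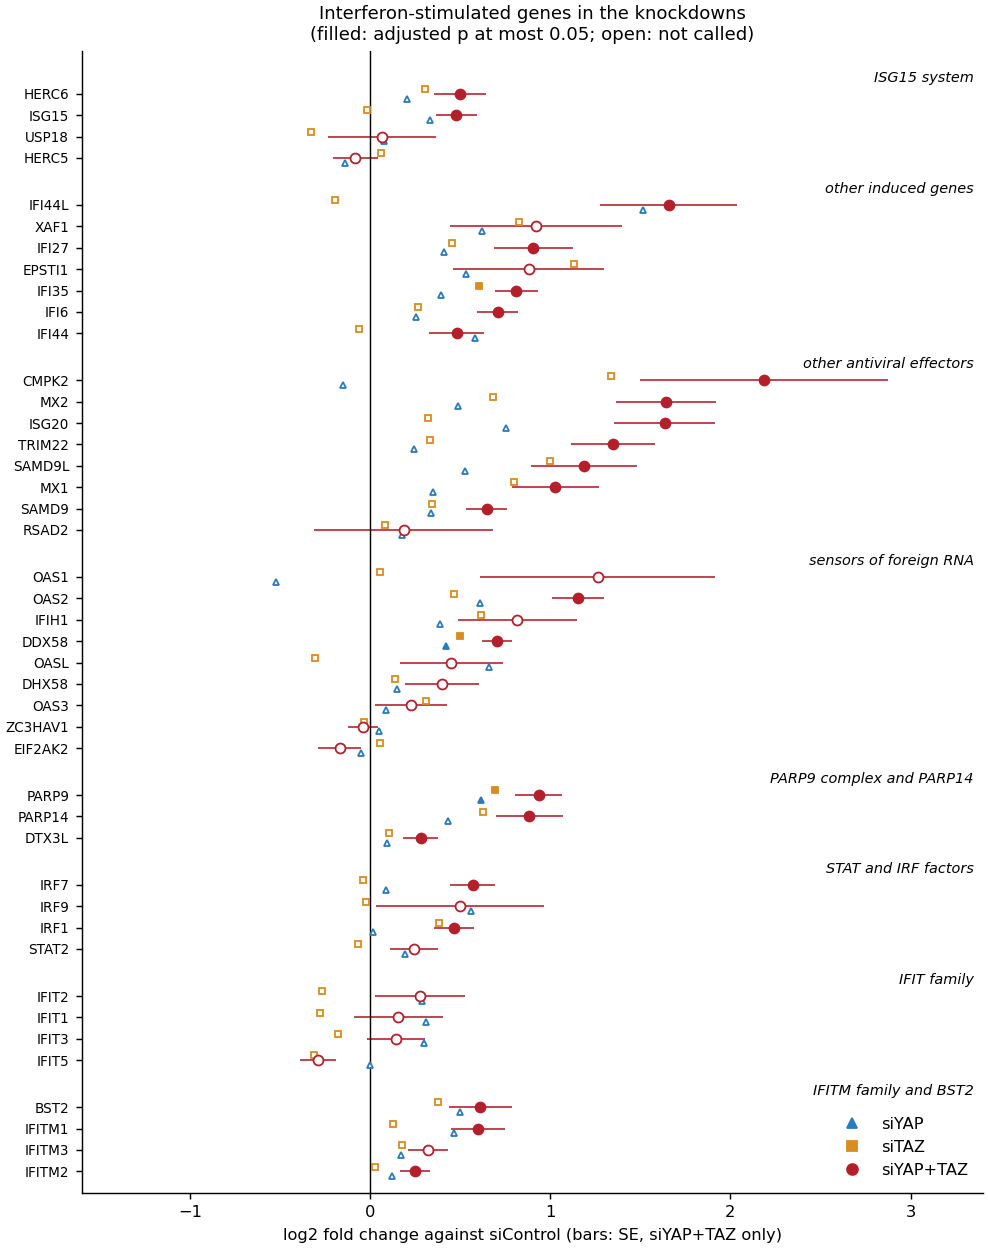
Log2 fold change against siControl of the 43 interferon-stimulated genes in siYAP (triangles), siTAZ (squares) and siYAP+TAZ (circles with SE bars), grouped by role. Filled symbols passed the test, as 24 genes did with both pools, 2 with the YAP pool and 3 with the TAZ pool, and none of the 4 IFIT genes.

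Sensors of foreign RNA were divided: 2 of 9 rose in siYAP+TAZ, where 9.97% of all genes rose, and 7 did not pass the test. DDX58, which encodes the RNA helicase RIG-I (chr9:32455302-32526208), had 775, 817 and 752 in Control, 741, 670.4 and 746 in siControl, 858, 1066 and 964 in siYAP, 992, 1066 and 996 in siTAZ and 1163, 1185 and 1169 in siYAP+TAZ. Its siYAP+TAZ values were the highest of all groups and close to each other (mean 1172 ± 11.4 SD, against 719 ± 42.1 in siControl, n = 3), and the single knockdowns lay between. The log2 fold change of DDX58 was 0.71 ± 0.08 (SE, adjusted p = 1.23e-05 by edgeR) in siYAP+TAZ, 0.42 ± 0.08 (SE, adjusted p = 0.0159 by edgeR) in siYAP and 0.50 ± 0.08 (SE, adjusted p = 0.00472 by edgeR) in siTAZ. An annotated readthrough gene contains 96.59% of the 50-base stretches of the DDX58 transcript, so reads may be divided between them. OAS2 (chr12:112978395-113011723) makes the messenger molecule that activates RNase L and had 215, 217 and 179 in Control, 230.5, 201 and 235 in siControl, 296, 323 and 402 in siYAP, 288, 265 and 368 in siTAZ and 476, 434 and 573 in siYAP+TAZ. OAS2 was higher in siYAP+TAZ than in every other library, with a log2 fold change of 1.16 ± 0.14 (SE, adjusted p = 2.57e-05 by edgeR). In siYAP and siTAZ all libraries were also above siControl, with log2 fold changes of 0.61 ± 0.14 (SE, adjusted p = 0.0518 by edgeR) and 0.46 ± 0.15 (SE, adjusted p = 0.109 by edgeR).

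The other sensors did not pass the test over all libraries. IFIH1 (0.75, edgeR adjusted p = 0.0033) and OAS3 (0.26, edgeR adjusted p = 0.048) did without libraries 26 to 30. ZC3HAV1, an RNA-binding protein that targets viral RNA for decay and the most abundant sensor per length, had 2014, 2146 and 2177 in Control, 2125, 2043 and 2249.7 in siControl, 2238, 1999.6 and 2417 in siYAP, 2043, 2027 and 2204 in siTAZ and 1944, 2005 and 2294 in siYAP+TAZ. Its groups overlapped throughout, and the log2 fold change in siYAP+TAZ was -0.04 ± 0.08 (SE, adjusted p = 0.798 by edgeR). IFIH1, the helicase MDA5, had a log2 fold change of 0.82 ± 0.33 (SE, adjusted p = 0.11 by edgeR) in siYAP+TAZ, with library 27 of siControl (202) above library 20 of siYAP+TAZ (179.6). For DHX58, a helicase that regulates these sensors, it was 0.40 ± 0.21 (SE, adjusted p = 0.202 by edgeR). EIF2AK2, the kinase PKR that halts translation when it binds double-stranded RNA, had 1454 to 2180.0 normalized counts, its log2 fold change being -0.17 ± 0.12 (SE, adjusted p = 0.378 by edgeR). OAS3 and OASL, relatives of OAS2, had log2 fold changes of 0.23 ± 0.20 (SE, adjusted p = 0.498 by edgeR) and 0.45 ± 0.29 (SE, adjusted p = 0.323 by edgeR). OAS1 had 8.32, 8.59 and 10.1 in siYAP+TAZ and 0.92 to 10.1 over all libraries, which is too few for a firm comparison, at a log2 fold change of 1.26 ± 0.65 (SE, adjusted p = 0.193 by edgeR). OAS1, OAS3 and OAS2 are neighbours on chromosome 12, and of these OAS2 alone passed the test, although the genes were not compared with each other.

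Of the 4 STAT and IRF factors, IRF1 and IRF7 rose in siYAP+TAZ, where 9.97% of all genes rose. IRF7 (chr11:612553-615983), the factor that amplifies interferon production, had 596, 619 and 497 in Control, 552, 578 and 502 in siControl, 616, 623 and 495 in siYAP, 636, 512 and 437 in siTAZ and 855, 822 and 751 in siYAP+TAZ. Its siYAP+TAZ libraries were above all others, whereas siYAP and siTAZ overlapped siControl. The log2 fold change of IRF7 was 0.57 ± 0.13 (SE, adjusted p = 0.00342 by edgeR) in siYAP+TAZ, 0.09 ± 0.13 (SE, adjusted p = 0.864 by edgeR) in siYAP and -0.04 ± 0.13 (SE, adjusted p = 0.93 by edgeR) in siTAZ. IRF1 (chr5:132440440-132508719), which activates antiviral genes and responds to several cytokines, had 496, 483 and 531 in Control, 489.9, 518 and 541 in siControl, 530.2, 567 and 469 in siYAP, 626, 661 and 735 in siTAZ and 661, 624 and 849 in siYAP+TAZ. The siTAZ and siYAP+TAZ libraries were above siControl and the siYAP libraries overlapped it. IRF1 had a log2 fold change of 0.47 ± 0.11 (SE, adjusted p = 0.00571 by edgeR) in siYAP+TAZ, 0.38 ± 0.11 (SE, adjusted p = 0.0762 by edgeR) in siTAZ and 0.02 ± 0.11 (SE, adjusted p = 0.98 by edgeR) in siYAP. Antisense genes cover 22.87% of the exonic bases of IRF1, and the strand used for counting was not stated.

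STAT2 and IRF9, which act together in a complex that binds the response element, did not pass the test. STAT2 (chr12:56341597-56360203) had 710.4, 696 and 471 in Control, 533, 621 and 521 in siControl, 673, 659.6 and 586 in siYAP, 609, 464 and 522 in siTAZ and 637, 645 and 700.2 in siYAP+TAZ. Every siYAP+TAZ library was above every siControl library, but Control reached higher, and the log2 fold change was 0.24 ± 0.13 (SE, adjusted p = 0.237 by edgeR). IRF9 (chr14:24161234-24168043) had 26, 19.8 and 9.2 in Control, 16.2, 13.9 and 11.8 in siControl, 26.1, 23.8 and 11.3 in siYAP, 22.4, 11.7 and 5.14 in siTAZ and 28.5, 20.4 and 11.9 in siYAP+TAZ. Within every group its value was lowest in the library numbered 26 to 30, and the log2 fold change was 0.50 ± 0.46 (SE, adjusted p = 0.516 by edgeR). A readthrough gene holds 92.83% of the stretches of IRF9, so reads may be divided between them.

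In the ISG15 system, ISG15 and HERC6 rose in siYAP+TAZ, where 9.97% of all genes rose, and USP18 and HERC5 did not pass the test. ISG15 (chr1:1001138-1014540), the ubiquitin-like modifier itself, had 1063, 1061 and 943 in Control, 1068, 1081 and 909 in siControl, 1312, 1259 and 1277 in siYAP, 1206, 809 and 999 in siTAZ and 1516, 1481 and 1271 in siYAP+TAZ. All siYAP and siYAP+TAZ libraries were above siControl, and siTAZ spanned it. The log2 fold change of ISG15 was 0.48 ± 0.11 (SE, adjusted p = 0.00621 by edgeR) in siYAP+TAZ, 0.33 ± 0.11 (SE, adjusted p = 0.208 by edgeR) in siYAP and -0.02 ± 0.11 (SE, adjusted p = 0.961 by edgeR) in siTAZ. HERC6 (chr4:88378739-88443097), a ligase of the same family as the ISG15 ligase HERC5, had 201, 223 and 235 in Control, 176, 192 and 237 in siControl, 196, 246 and 256 in siYAP, 225, 246 and 276 in siTAZ and 247, 277 and 327 in siYAP+TAZ. Its log2 fold change in siYAP+TAZ was 0.50 ± 0.14 (SE, adjusted p = 0.0193 by edgeR), and it no longer passed with Control as the reference (0.38, edgeR adjusted p = 0.076) or without siControl 17 (0.41, edgeR adjusted p = 0.099), siControl 22 (0.47, edgeR adjusted p = 0.074) or siYAP+TAZ 30 (0.39, edgeR adjusted p = 0.1). HERC5 lies next to HERC6 on chromosome 4 and attaches ISG15 in human cells, and it had 458 to 757 normalized counts, its log2 fold change being -0.08 ± 0.12 (SE, adjusted p = 0.712 by edgeR). USP18, which removes ISG15 and dampens interferon signalling, had 9.33 to 27.2 and a log2 fold change of 0.07 ± 0.30 (SE, adjusted p = 0.912 by edgeR). Of the USP18 transcript, 52.9% lies in stretches shared with other genes.

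PARP9, DTX3L and PARP14 all rose in siYAP+TAZ, where 9.97% of all genes rose. They lie close together on chromosome 3. PARP9 (chr3:122527924-122564577), an ADP-ribosyltransferase that acts with DTX3L, had 156, 142 and 133 in Control, 139, 118 and 121 in siControl, 194, 203 and 184 in siYAP, 210.1, 184 and 219.8 in siTAZ and 231, 213 and 279.9 in siYAP+TAZ. All libraries of the 3 knockdowns were above all siControl and Control libraries. The log2 fold change of PARP9 was 0.94 ± 0.13 (SE, adjusted p = 7.13e-05 by edgeR) in siYAP+TAZ, 0.62 ± 0.13 (SE, adjusted p = 0.0272 by edgeR) in siYAP and 0.70 ± 0.13 (SE, adjusted p = 0.00944 by edgeR) in siTAZ. Its partner DTX3L (chr3:122564338-122575203), a ubiquitin ligase, had 561, 697 and 739 in Control, 672, 681 and 680.2 in siControl, 689, 759.8 and 723 in siYAP, 708, 672 and 805 in siTAZ and 800.2, 845 and 822 in siYAP+TAZ. The siYAP+TAZ values lay above siControl by a small margin, with a log2 fold change of 0.28 ± 0.09 (SE, adjusted p = 0.0468 by edgeR), below that of PARP9. DTX3L stood near the threshold, and it no longer passed without siControl 17, 22 or 27, siYAP 18 or 28, siTAZ 19, siYAP+TAZ 20, 25 or 30 or Control 21, at log2 fold changes of 0.27 to 0.30 and edgeR adjusted p of 0.051 to 0.12. PARP14 (chr3:122680839-122730840), a larger ADP-ribosyltransferase, had 528, 544 and 651 in Control, 548, 538 and 576 in siControl, 591, 774 and 878 in siYAP, 756, 763 and 1051 in siTAZ and 806, 938 and 1316 in siYAP+TAZ. The knockdown libraries were all above siControl, and within every group the library numbered 26 to 30 was the highest. PARP14 had a log2 fold change of 0.88 ± 0.18 (SE, adjusted p = 0.00402 by edgeR) in siYAP+TAZ, 0.63 ± 0.19 (SE, adjusted p = 0.0997 by edgeR) in siTAZ and 0.43 ± 0.18 (SE, adjusted p = 0.368 by edgeR) in siYAP.

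**Figure D2:**
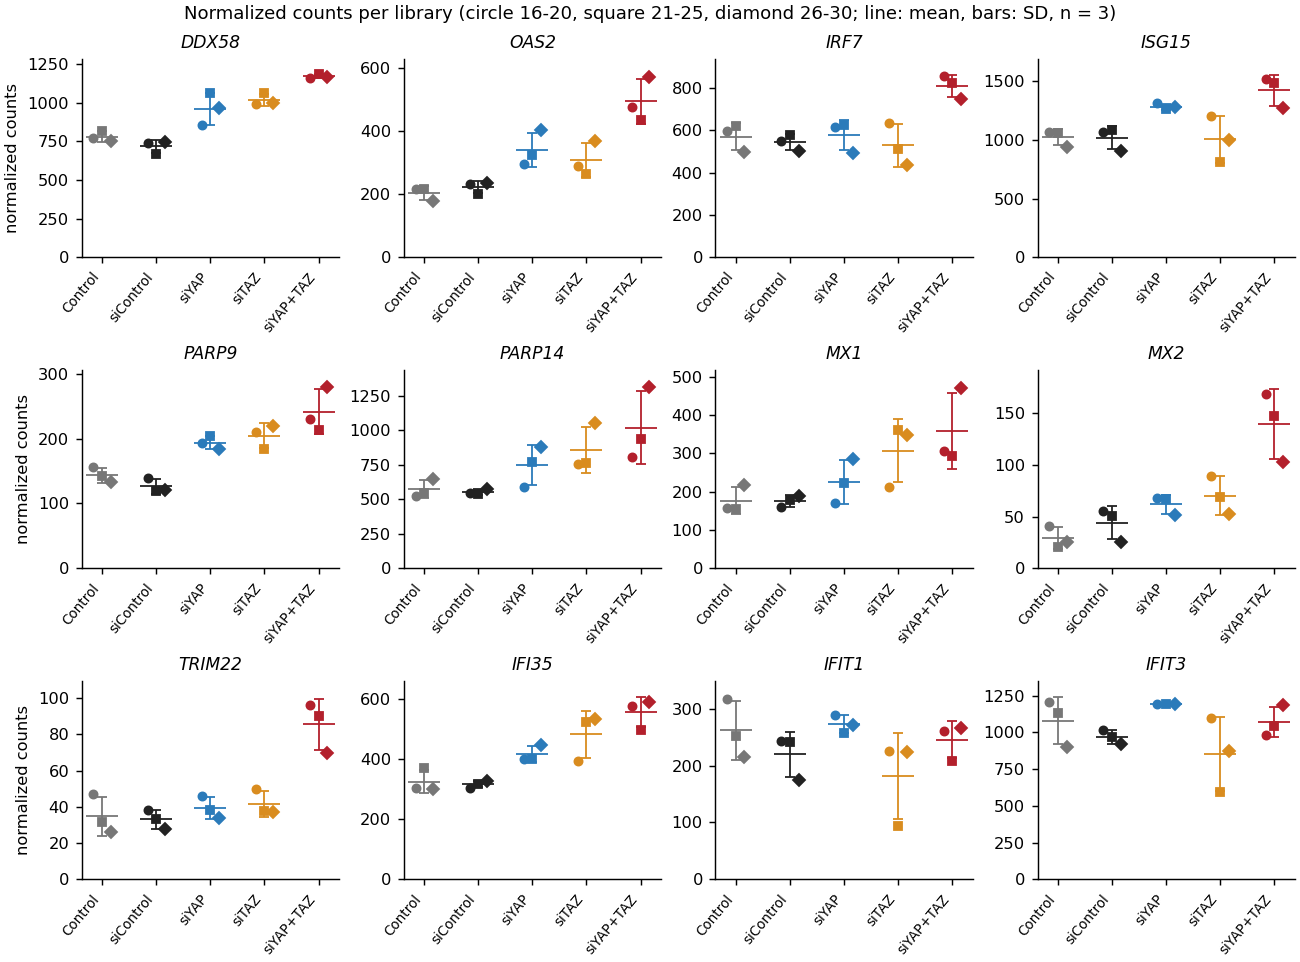
Normalized counts of 12 interferon-stimulated genes in each library (circle, libraries 16 to 20; square, 21 to 25; diamond, 26 to 30), with the mean as a line and the SD as a bar (n = 3 per group). DDX58, OAS2, IRF7, MX2 and TRIM22 show siYAP+TAZ above all other libraries, and IFIT1 and IFIT3 show siTAZ and siYAP+TAZ overlapping siControl, siYAP above it, and siTAZ 24 lowest.

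None of the 4 IFIT genes passed the test in any knockdown over all libraries. Without libraries 26 to 30, IFIT5 fell in siYAP+TAZ, with a log2 fold change of -0.37 (edgeR adjusted p = 0.0047), and in siTAZ, with one of -0.42 (edgeR adjusted p = 0.0093). These genes, a cluster on chromosome 10, encode proteins that bind foreign RNA and block its translation. IFIT3 (chr10:89327307-89377473), the most abundant of them per length, had 1209, 1132 and 903 in Control, 1019.8, 970.0 and 918 in siControl, 1193, 1196 and 1192 in siYAP, 1099, 592 and 873 in siTAZ and 983, 1043 and 1185 in siYAP+TAZ. The siYAP values were nearly identical and above siControl, and siTAZ 24 was the lowest library. IFIT3 had a log2 fold change of 0.14 ± 0.16 (SE, adjusted p = 0.61 by edgeR) in siYAP+TAZ, 0.30 ± 0.16 (SE, adjusted p = 0.506 by edgeR) in siYAP and -0.18 ± 0.16 (SE, adjusted p = 0.665 by edgeR) in siTAZ. IFIT1 had 243, 241 and 175 in siControl, 226, 93.8 and 224 in siTAZ and 262, 208 and 267 in siYAP+TAZ, with a log2 fold change of 0.16 ± 0.25 (SE, adjusted p = 0.728 by edgeR) in siYAP+TAZ. For IFIT2 it was 0.28 ± 0.25 (SE, adjusted p = 0.512 by edgeR). IFIT5 differed in sign from the rest, at -0.29 ± 0.10 (SE, adjusted p = 0.055 by edgeR), and passed against Control, at -0.32 ± 0.10 (SE, adjusted p = 0.034 by edgeR). The median of the 4 genes, as a log2 difference from the siControl mean, was -0.738 in siTAZ 24, 0.065 and -0.171 in the other siTAZ libraries, and 0.431 in Control 16.

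The IFITM genes encode proteins that stop viruses from fusing with the cell membrane, and BST2 one that tethers virus particles to it. By RNA, 3 of these 4 genes were higher in siYAP+TAZ, where 9.97% of all genes rose. This count was 0 without siControl 22, where 13.3% of all genes passed in either direction. It was 1 without siControl 17 (13.4%) or siYAP+TAZ 25 (14.1%). IFITM3 (chr11:319676-329475), the most abundant gene of the programme per length, had 2689.7, 3029 and 3595 in Control, 3075, 2927 and 3529.5 in siControl, 3183, 3352 and 4212 in siYAP, 3321, 3735 and 3739 in siTAZ and 4158, 3755 and 4007 in siYAP+TAZ. Its siYAP+TAZ libraries were all above siControl, but the log2 fold change of 0.32 ± 0.11 (SE, adjusted p = 0.053 by edgeR) missed the threshold, which it passed without libraries 26 to 30 (0.41, edgeR adjusted p = 0.0012). Opposite-strand genes cover 16.32% of the exonic bases of IFITM3, and the strand used for counting was not stated. IFITM2 (chr11:303655-309397) had 720.4, 823 and 849 in Control, 818, 780.4 and 911 in siControl, 893, 873 and 959 in siYAP, 831, 846 and 877 in siTAZ and 1077, 957 and 949.8 in siYAP+TAZ. IFITM2 rose by the smallest amount among the 24, 0.25 ± 0.08 (SE, adjusted p = 0.0467 by edgeR), and the call was lost without siControl 17 or 22, siYAP 18, siTAZ 19 or 29, siYAP+TAZ 20 or 25 or Control 21, at log2 fold changes of 0.19 to 0.28 and edgeR adjusted p of 0.052 to 0.2. IFITM1 (chr11:310041-315272) had 102, 121 and 97.3 in Control, 116, 98 and 117 in siControl, 142, 142 and 173 in siYAP, 126, 97.3 and 138 in siTAZ and 155, 177 and 169 in siYAP+TAZ. The siYAP libraries overlapped siYAP+TAZ and lay above siControl, whereas siTAZ overlapped siControl, with log2 fold changes of 0.60 ± 0.15 (SE, adjusted p = 0.00883 by edgeR) in siYAP+TAZ, 0.46 ± 0.15 (SE, adjusted p = 0.171 by edgeR) in siYAP and 0.13 ± 0.15 (SE, adjusted p = 0.762 by edgeR) in siTAZ. IFITM1 did not pass without siControl 22 (0.52, edgeR adjusted p = 0.052). The 3 IFITM genes are neighbours on chromosome 11. Of the 50-base stretches of IFITM1, 55.09% occur in other genes, and the annotated gene ENSG00000288681 alone holds 50.73%. For IFITM2 these shares are 12.02% and 7.21%. Of IFITM3, 20.82% occur in other genes, and IFITM1 holds 17.44%. Reads may be divided between each gene and those it shares stretches with.

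BST2 (chr19:17402939-17405630) had 891, 875 and 1183 in Control, 929.6, 899.7 and 1116 in siControl, 1168, 1300.2 and 1693 in siYAP, 1158, 1186 and 1487 in siTAZ and 1199, 1491 and 1801 in siYAP+TAZ. All libraries of all knockdowns were above siControl, and within every group the library numbered 26 to 30 was the highest. BST2 had log2 fold changes of 0.61 ± 0.18 (SE, adjusted p = 0.0261 by edgeR) in siYAP+TAZ, 0.50 ± 0.18 (SE, adjusted p = 0.243 by edgeR) in siYAP and 0.38 ± 0.18 (SE, adjusted p = 0.311 by edgeR) in siTAZ. The first of these was lost without siControl 17 (0.58), siControl 22 (0.55), siYAP+TAZ 25 (0.62) or siYAP+TAZ 30 (0.46), at edgeR adjusted p of 0.059 to 0.1.

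Among the 8 other antiviral effectors, 7 rose in siYAP+TAZ, where 9.97% of all genes rose. Of the 8 genes with a log2 fold change of at least 1, 6 were in this class. MX1 and MX2 are dynamin-like GTPases that trap viral components and are neighbours on chromosome 21. MX2 (chr21:41361999-41409393) had 41, 21 and 25 in Control, 55.3, 50.9 and 25.8 in siControl, 68.2, 66.8 and 51.4 in siYAP, 89.6, 69.1 and 52.7 in siTAZ and 169, 147 and 103 in siYAP+TAZ. The 3 siYAP+TAZ libraries were above all others and siYAP 28 and siTAZ 29 lay within the siControl range, with a log2 fold change of 1.64 ± 0.28 (SE, adjusted p = 0.000442 by edgeR) in siYAP+TAZ, 0.68 ± 0.29 (SE, adjusted p = 0.247 by edgeR) in siTAZ and 0.49 ± 0.29 (SE, adjusted p = 0.545 by edgeR) in siYAP. MX1 (chr21:41420020-41470071) had 158, 155 and 217 in Control, 159.9, 179 and 189 in siControl, 169, 222 and 286 in siYAP, 212, 362 and 348 in siTAZ and 307, 294 and 472 in siYAP+TAZ. Here siTAZ and siYAP+TAZ overlapped and both lay above siControl. MX1 had a log2 fold change of 1.03 ± 0.24 (SE, adjusted p = 0.00774 by edgeR) in siYAP+TAZ, 0.80 ± 0.24 (SE, adjusted p = 0.107 by edgeR) in siTAZ and 0.35 ± 0.24 (SE, adjusted p = 0.636 by edgeR) in siYAP.

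TRIM22 (chr11:5689610-5737089), a ubiquitin ligase that restricts several viruses, had 47, 31.5 and 26.3 in Control, 38.3, 33.3 and 27.9 in siControl, 46, 38.1 and 33.9 in siYAP, 49.9, 37.5 and 37.3 in siTAZ and 96.3, 90.2 and 69.7 in siYAP+TAZ. Its values were low and alike in Control, siControl and the single knockdowns, and siYAP+TAZ stood above all of them, with a log2 fold change of 1.35 ± 0.23 (SE, adjusted p = 0.000485 by edgeR) in siYAP+TAZ, 0.25 ± 0.24 (SE, adjusted p = 0.778 by edgeR) in siYAP and 0.33 ± 0.25 (SE, adjusted p = 0.559 by edgeR) in siTAZ. ISG20 (chr15:88635670-88656483), an exonuclease that degrades RNA, had 32, 44.3 and 28.9 in Control, 33.2, 43.5 and 22.5 in siControl, 62.1, 53.2 and 53.4 in siYAP, 46.5, 34 and 43.7 in siTAZ and 115, 136 and 61.5 in siYAP+TAZ. The siYAP libraries were also above siControl, and siYAP+TAZ 30 lay within their range. ISG20 had a log2 fold change of 1.64 ± 0.28 (SE, adjusted p = 0.000458 by edgeR) in siYAP+TAZ, 0.76 ± 0.29 (SE, adjusted p = 0.265 by edgeR) in siYAP and 0.32 ± 0.30 (SE, adjusted p = 0.67 by edgeR) in siTAZ.

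SAMD9 and SAMD9L, neighbours on chromosome 7, encode related proteins that restrict poxviruses and limit cell growth. SAMD9 (chr7:93099513-93118023) had 374, 336 and 295 in Control, 370.0, 347 and 327 in siControl, 421, 507 and 392 in siYAP, 438, 449 and 441 in siTAZ and 519.6, 619.9 and 499 in siYAP+TAZ. Every knockdown library was above every siControl library, and the log2 fold change was 0.65 ± 0.11 (SE, adjusted p = 0.000598 by edgeR) in siYAP+TAZ, 0.34 ± 0.11 (SE, adjusted p = 0.192 by edgeR) in siYAP and 0.35 ± 0.12 (SE, adjusted p = 0.127 by edgeR) in siTAZ. SAMD9L (chr7:93130056-93148385) had 286, 214 and 237 in Control, 207, 214 and 281 in siControl, 261, 335 and 416 in siYAP, 339, 502 and 564 in siTAZ and 353, 443 and 788 in siYAP+TAZ. All siTAZ and siYAP+TAZ libraries were above siControl, siYAP overlapped it, and siYAP+TAZ 30 was far above the other libraries of its group. The log2 fold change was 1.19 ± 0.29 (SE, adjusted p = 0.014 by edgeR) in siYAP+TAZ, 0.999 ± 0.30 (SE, adjusted p = 0.11 by edgeR) in siTAZ and 0.53 ± 0.30 (SE, adjusted p = 0.532 by edgeR) in siYAP. The call in siYAP+TAZ was lost without siControl 17 (1.11, edgeR adjusted p = 0.059) or siControl 22 (1.13, edgeR adjusted p = 0.057).

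CMPK2 (chr2:6840570-6866635), a mitochondrial nucleotide kinase, had 1, 6.99 and 3.94 in Control, 2.55, 0.92 and 3.22 in siControl, 1.53, 3.18 and 1.03 in siYAP, 5.17, 7.03 and 5.14 in siTAZ and 14.3, 3.22 and 13.8 in siYAP+TAZ. The lowest siYAP+TAZ library exceeded the highest siControl library only beyond the digits printed, at 3 reads in each. These are few reads, 30 in all siYAP+TAZ libraries and 7 in all siControl libraries, and the ratio of their depth-adjusted sums was 4.78, with a 95% counting interval of 2.06 to 12.9 that covers counting error only. The fitted log2 fold change of 2.18 ± 0.69 (SE, adjusted p = 0.0285 by edgeR) depends on a prior count, and the call was lost without siControl 17 or 22 or siYAP+TAZ 20 or 30 (1.83 to 2.32, edgeR adjusted p = 0.071 to 0.12), without libraries 26 to 30 (2.21, edgeR adjusted p = 0.11), or with Control as the reference (1.41, edgeR adjusted p = 0.13). RSAD2, or viperin, which makes an antiviral nucleotide, lies beside CMPK2 on chromosome 2 and had 2.77 to 14.4 normalized counts, its log2 fold change being 0.19 ± 0.50 (SE, adjusted p = 0.842 by edgeR).

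Of the 7 other induced genes, 5 rose in siYAP+TAZ, where 9.97% of all genes rose. IFI35 (chr17:43006740-43014456), a modulator of innate signalling, had 306, 371 and 302 in Control, 306, 318 and 328 in siControl, 402, 401 and 449 in siYAP, 394, 524 and 533 in siTAZ and 579, 499.5 and 593 in siYAP+TAZ. Each knockdown library was above each siControl library, and the log2 fold change was 0.81 ± 0.12 (SE, adjusted p = 0.000112 by edgeR) in siYAP+TAZ, 0.60 ± 0.12 (SE, adjusted p = 0.0115 by edgeR) in siTAZ and 0.39 ± 0.12 (SE, adjusted p = 0.137 by edgeR) in siYAP. IFI6 (chr1:27666064-27672212), a membrane protein that protects against flaviviruses, had 169, 202 and 205 in Control, 173, 179 and 175 in siControl, 215, 211 and 201 in siYAP, 232, 198 and 201 in siTAZ and 291, 258 and 311 in siYAP+TAZ. The siYAP+TAZ libraries were above all others, with a log2 fold change of 0.71 ± 0.11 (SE, adjusted p = 0.000289 by edgeR), against 0.25 ± 0.12 (SE, adjusted p = 0.39 by edgeR) in siYAP and 0.26 ± 0.12 (SE, adjusted p = 0.267 by edgeR) in siTAZ. Of the 50-base stretches of IFI6, 21.89% occur in LINC02574, which overlaps it on the same strand, so reads may be divided between them. IFI27 (chr14:94104836-94116695), a mitochondrial protein of the same family, had 122, 163 and 178 in Control, 147, 142 and 165 in siControl, 172, 172 and 262 in siYAP, 166, 189.8 and 271 in siTAZ and 259, 223 and 366 in siYAP+TAZ. In every group the library numbered 26 to 30 was the highest, and all knockdown libraries were above siControl. IFI27 had a log2 fold change of 0.91 ± 0.22 (SE, adjusted p = 0.00847 by edgeR) in siYAP+TAZ, 0.46 ± 0.22 (SE, adjusted p = 0.338 by edgeR) in siTAZ and 0.41 ± 0.22 (SE, adjusted p = 0.506 by edgeR) in siYAP.

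IFI44 and IFI44L are adjacent on chromosome 1, and each was higher in all siYAP libraries than in all siTAZ libraries. IFI44 (chr1:78649796-78664078), a GTP-binding protein, had 127, 128 and 133 in Control, 146, 144 and 149 in siControl, 195, 197 and 267 in siYAP, 128, 134 and 161 in siTAZ and 197, 169 and 246 in siYAP+TAZ. The siYAP and siYAP+TAZ libraries were all above siControl, and siTAZ overlapped it. IFI44 had log2 fold changes of 0.48 ± 0.15 (SE, adjusted p = 0.0351 by edgeR) in siYAP+TAZ, 0.58 ± 0.15 (SE, adjusted p = 0.0792 by edgeR) in siYAP and -0.06 ± 0.16 (SE, adjusted p = 0.896 by edgeR) in siTAZ. In siYAP+TAZ the call was lost without any siControl library, without siYAP+TAZ 20 or 30, and without libraries 26 to 30 (0.33 to 0.50, edgeR adjusted p = 0.065 to 0.19). IFI44L (chr1:78619902-78646145), its paralogue, had 7.99, 6.99 and 2.63 in Control, 6.8, 4.62 and 9.66 in siControl, 24.5, 15.1 and 20.5 in siYAP, 7.75, 4.69 and 5.14 in siTAZ and 19, 19.3 and 27.5 in siYAP+TAZ. Its siYAP and siYAP+TAZ libraries overlapped each other and lay above siControl and siTAZ, at far fewer reads, with log2 fold changes of 1.66 ± 0.38 (SE, adjusted p = 0.0045 by edgeR) in siYAP+TAZ, 1.52 ± 0.38 (SE, adjusted p = 0.0602 by edgeR) in siYAP and -0.20 ± 0.47 (SE, adjusted p = 0.897 by edgeR) in siTAZ. XAF1, a regulator of apoptosis, had 6.8 to 50.5 normalized counts, its log2 fold change being 0.92 ± 0.48 (SE, adjusted p = 0.204 by edgeR) in siYAP+TAZ, with 38.32% of its exonic bases covered by an antisense gene. EPSTI1, a stromal interaction gene, had a log2 fold change of 0.88 ± 0.42 (SE, adjusted p = 0.165 by edgeR) in siYAP+TAZ and 1.13 ± 0.41 (SE, adjusted p = 0.175 by edgeR) in siTAZ.

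With a single pool, 2 genes passed in siYAP and 3 in siTAZ. In siYAP, DDX58 and PARP9 rose, 2 of 43 where 0.477% of all genes rose, and none fell (0.456% of all genes). At an unadjusted p under 0.05 there were 14, against 11.9% of all genes in either direction, and the median log2 fold change over the 43 was 0.31. In siTAZ, DDX58, IFI35 and PARP9 rose, 3 of 43 where 1.34% of all genes rose, and none fell (0.695% of all genes). At an unadjusted p under 0.05 there were 15, against 16.0% of all genes, and the median was 0.18. DDX58 lost its siYAP call without siControl 17 or 22 or siYAP 23 or 28 (0.36 to 0.46, edgeR adjusted p = 0.062 to 0.11) and PARP9 without any siControl or siYAP library (0.57 to 0.71, edgeR adjusted p = 0.064 to 0.13). In siTAZ, PARP9 lost it without siControl 22 (0.65, edgeR adjusted p = 0.061), IFI35 without siControl 17 or 22 or siTAZ 24 or 29 (0.53 to 0.61, edgeR adjusted p = 0.056 to 0.093), and DDX58 kept it whichever library was left out. All siYAP libraries were above all siControl libraries for 17 of the 43 genes (9.65% of all genes), and all siTAZ libraries for 13 (10.7%). The siYAP count was 0 without siControl 17 (0.143% of all genes in either direction), siControl 22 (0.339%), siYAP 23 (0.726%) or siYAP 28 (0.217%). It was 1 without siControl 27 (0.361%) or siYAP 18 (0.308%), and 4 without Control 26 (1.37%) or siYAP+TAZ 30 (1.07%). For siTAZ it was 1 without siControl 22 (0.658%) and 2 without siControl 17 (0.626%), siTAZ 24 (0.361%) or siTAZ 29 (1.28%). The siTAZ count was 6 without siYAP+TAZ 30 (2.2%) and 7 without siTAZ 19 (4.78%). Without libraries 26 to 30 it was 4 in siYAP, all higher (1.18% of all genes in either direction), and 10 in siTAZ, of which 9 were higher and 1 lower (4.68%). When the untransfected cells served as the reference, 24 genes passed with both pools (23 higher and IFIT5 lower, 19.4% of all genes in either direction), 3 with the YAP pool (1.46%) and 6 with the TAZ pool (3.4%), and neither DDX58 nor PARP9 was among the 3 (edgeR adjusted p = 0.079 and 0.12).

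Set directly against siYAP, siYAP+TAZ was higher for 9 of the 43 genes and lower for none, while 3.43% of all genes were higher and 1.7% lower. These were CMPK2 (2.34), MX2 (1.15), TRIM22 (1.103), OAS2 (0.54), IRF7 (0.48), IFI6 (0.45), IRF1 (0.45), IFI35 (0.42) and DDX58 (0.28), given as log2 fold changes. Against siTAZ, siYAP+TAZ was also higher for 9 and lower for none, while 3.06% of all genes were higher and 2.38% lower. These were IFI44L (1.86), ISG20 (1.32), TRIM22 (1.02), MX2 (0.96), OAS2 (0.69), IRF7 (0.61), IFI44 (0.54), ISG15 (0.50) and IFI6 (0.44). IFI6, IRF7, MX2, OAS2 and TRIM22 were thus higher with both pools than with either alone, IFI6 only with libraries 26 to 30 included. Whichever single library was left out, TRIM22 passed against siYAP, at 1.103 ± 0.23 (SE, adjusted p = 0.00737 by edgeR), and IRF7 and IFI44L passed against siTAZ, at 0.61 ± 0.13 (SE, adjusted p = 0.00815 by edgeR) and 1.86 ± 0.40 (SE, adjusted p = 0.0101 by edgeR). These counts are given with the share of all genes that passed in either direction. The count against siYAP was 1 without siYAP 18 (2.12%), 2 without siYAP 28 (3.6%) or siYAP+TAZ 20 (2.89%) and 3 without siYAP 23 (3.14%). It was 4 without siYAP+TAZ 30 (3.57%), 5 without siYAP+TAZ 25 (2.66%) and 6 without siControl 17 (4.37%) or 22 (4.28%). Against siTAZ it was 3 without siTAZ 24 (2.93%), 4 without siTAZ 29 (2.75%) or siYAP+TAZ 20 (2.52%), and 5 without siYAP+TAZ 25 (2.47%). The count against siYAP without libraries 26 to 30 was 7, with 6 higher and IFIT5 lower (7.76% of all genes in either direction), and that against siTAZ was 6, all higher (7.51%).

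Several of these calls stood near the threshold. Without libraries 26 to 30, CMPK2 (1.82, edgeR adjusted p = 0.24), IRF1 (0.23, 0.15), IFI6 (0.36, 0.11), DDX58 (0.29, 0.075) and IFI35 (0.42, 0.051) no longer passed against siYAP, nor did IFI6 (0.35, 0.14), IFI44L (1.57, 0.055) and IFI44 (0.49, 0.052) against siTAZ. CMPK2 was also lost against siYAP with DESeq2 (adjusted p = 0.064) and, only just, with library size only. DDX58 was lost with library size only (edgeR adjusted p = 0.06). When 1 library was left out, the call against siYAP was lost in 13 of 15 cases for DDX58 (edgeR adjusted p = 0.051 to 0.23), 12 for CMPK2 (0.051 to 0.17) and 8 for IFI35 (0.053 to 0.15). Against siTAZ it was lost in 12 cases for IFI44 (0.053 to 0.19) and 7 for MX2 (0.054 to 0.18). The other calls that could be lost in this way were lost in 1 to 5 cases each.

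Between siTAZ and siYAP, none of the 43 genes passed the edgeR test (0.642% of all genes did), and DESeq2 called 3 (1.88%). An unadjusted p under 0.05 was reached by 10, against 13.7% of all genes. The smallest p-values were those of IFI44L, at -1.71 ± 0.40 (SE, adjusted p = 0.0536 by edgeR), and IFI44, at -0.64 ± 0.15 (SE, adjusted p = 0.0646 by edgeR), which were lower in every siTAZ library than in every siYAP library. The 4 IFIT genes had log2 fold changes of -0.59 (IFIT1), -0.55 (IFIT2), -0.48 (IFIT3) and -0.31 (IFIT5) in siTAZ against siYAP, with edgeR adjusted p of 0.176 to 0.356. The edgeR count was 0 without libraries 26 to 30 (0.297% of all genes) and 4 without siTAZ 19 (2.21%). It was 1 without Control 26 (1.09%), siYAP 23 (0.785%) or siYAP+TAZ 30 (0.578%), and 8 with a block for sets of consecutive library numbers (7.32%). The interaction, which measures how far siYAP+TAZ departed from adding up the siYAP and siTAZ effects on the log2 scale, passed for none of the 43 with edgeR or DESeq2 and for 0.0106% of all genes, with 2 genes (IRF7 and TRIM22) at an unadjusted p under 0.05 against 5.85% of all genes. The median interaction over the 43 was 0.02, and for IRF7 the value was 0.52 ± 0.18 (SE, adjusted p = 0.677 by edgeR). TAZ depletion was not equal, with WWTR1 at 1123 to 1284 in siYAP+TAZ and 254 to 828 in siTAZ. The interaction therefore cannot show whether equal losses of YAP and TAZ add up. With transfection alone none of the 43 passed with edgeR or DESeq2. Between siControl and Control no gene of the table passed (0.0%), no gene of the programme had an unadjusted p under 0.05 (2.11% of all genes did), and the median log2 fold change was -0.03.

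The position of each library was summarised as the median log2 difference from the siControl mean. Over the 24 genes that rose in siYAP+TAZ, this was -0.032 to 0.055 in siControl, -0.049 to 0.037 in Control, 0.267 to 0.461 in siYAP, 0.287 to 0.444 in siTAZ and 0.666 to 0.889 in siYAP+TAZ. The order of the groups is set in part by the choice of these genes and is a description. Over the other 19 genes it was 0.21 to 0.294 in siYAP+TAZ, 0.07 to 0.299 in siYAP, which overlapped siYAP+TAZ, and -0.076 to 0.071 in siTAZ. Libraries 16 to 20, 21 to 25 and 26 to 30 each held 1 library per group. In these sets 36, 39 and 39 of the 43 genes were higher in siYAP+TAZ than in siControl, against 47.2%, 47.3% and 49.1% of all genes. In all 3 sets 34 of the 43 were higher, against 27.6% of all genes, and the corresponding counts were 30 (20.2%) for siYAP, 21 (22.0%) for siTAZ and 3 (10.1%) for siControl against Control.

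**Figure D3:**
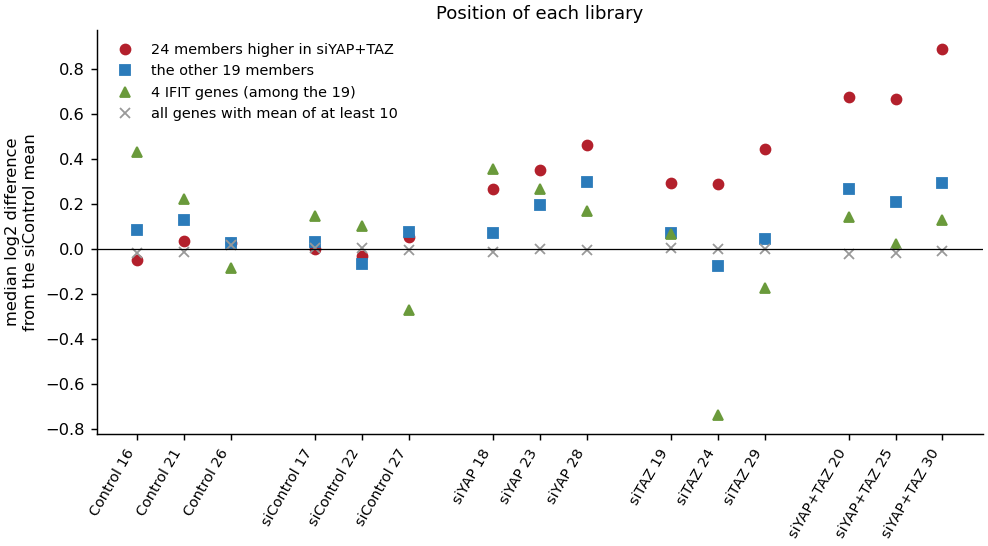
Median log2 difference of each library from the siControl mean for the 24 genes higher in siYAP+TAZ, the other 19, the 4 IFIT genes and all genes averaging 10 or more normalized counts. The 24 genes lie at 0.666 to 0.889 in siYAP+TAZ, the single knockdowns lie between these and siControl, and the IFIT median falls to -0.738 in siTAZ 24.

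Levels between genes were compared per kilobase of the canonical transcript, over all 15 libraries. IFITM3 was highest at 5707 normalized counts per kilobase, followed by ISG15 (1806), BST2 (1224) and IFITM2 (872). Below these came IFIT3 (433), IFI35 (356), IRF7 (315) and ZC3HAV1 (297). IFI44L was low at 2.09, and TRIM22 (16.2) and MX2 (20.3) stood far below the abundant genes. The large log2 fold changes of CMPK2, IFI44L, MX2, ISG20 and TRIM22 belonged to genes of low level (1.57 to 34.1 per kilobase). The length is that of a single transcript per gene, and the isoforms the cells use were not measured.

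**Figure D4:**
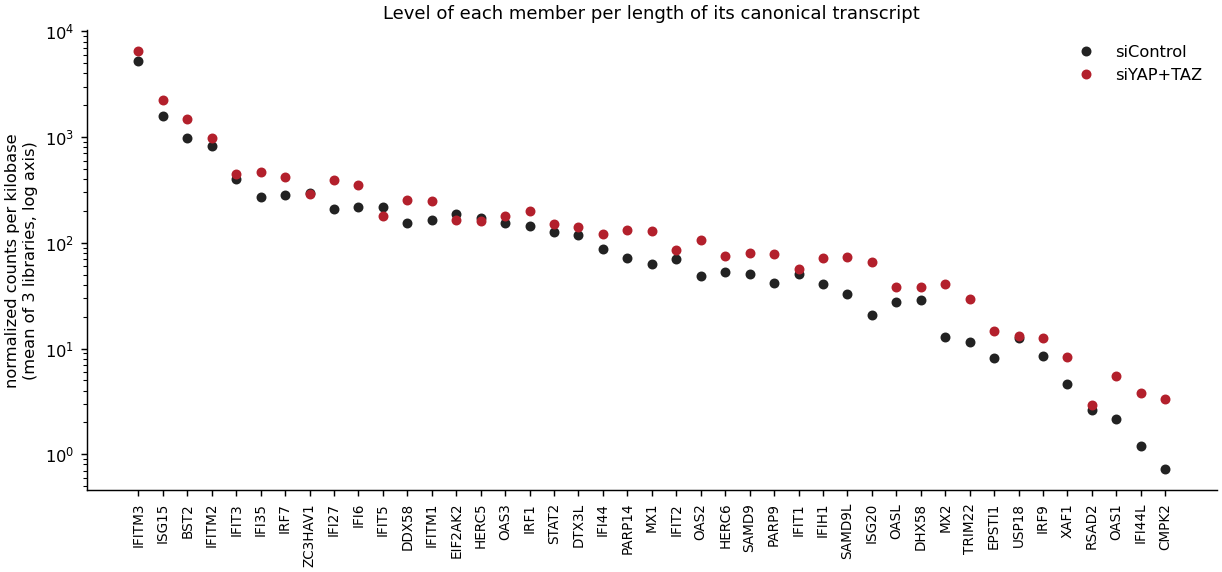
Mean normalized counts per kilobase (log axis) of the 43 genes in siControl (black) and siYAP+TAZ (red), n = 3 libraries each, ordered by the mean over all libraries. IFITM3 and ISG15 are highest and CMPK2 and IFI44L lowest.

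Genes around the programme were taken from lists of receptors and kinases, sensing adaptors, feedback inhibitors and genes that respond mainly to interferon gamma. The 21 listed interferon genes were not analysed here, so the ligands themselves cannot be described. Of 10 receptors and kinases, IFNLR1 and JAK1 rose in siYAP+TAZ and none fell. JAK1, a kinase of the interferon receptors, stood near the threshold, at 0.23 ± 0.07 (SE, adjusted p = 0.0337 by edgeR), and lost its call without siControl 17, 22 or 27 or siYAP+TAZ 25 or 30 (0.20 to 0.25, edgeR adjusted p = 0.055 to 0.12), which leaves a count of 1. Of 13 adaptors 4 rose and 1 fell, where 9.97% of all genes rose and 8.39% fell. MYD88, the adaptor of most Toll-like receptors, was among the adaptors that rose, at 0.33 ± 0.10 (SE, adjusted p = 0.0263 by edgeR), and lost its call without siControl 17 or 22 or siYAP+TAZ 20 or 30 (0.27 to 0.34, edgeR adjusted p = 0.055 to 0.097). Among 6 feedback inhibitors 1 rose and 1 fell, and of 7 genes of the interferon gamma list 3 rose. In siYAP none of these 36 genes passed with edgeR, where 0.477% of all genes rose and 0.456% fell. In siTAZ GBP1 and GBP2 rose, where 1.34% of all genes rose. Without libraries 26 to 30, 19.9% of all genes passed in either direction in siYAP+TAZ. There, 2 of the receptors and kinases rose, 6 of the adaptors rose and 1 fell, 1 of the inhibitors rose and 1 fell, and 4 of the interferon gamma list rose. None of the 36 then passed in siYAP (1.18% of all genes), and 4 of the interferon gamma list rose in siTAZ (4.68%).

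GBP2, a guanylate-binding protein that attacks pathogen-containing vacuoles, had 170.1, 167 and 168 in siControl, 218, 261 and 297 in siYAP, 238, 355 and 320.1 in siTAZ and 521, 654 and 678 in siYAP+TAZ. The single knockdowns overlapped each other and lay above siControl, and siYAP+TAZ was above all of them, with a log2 fold change of 1.87 ± 0.15 (SE, adjusted p = 2.05e-07 by edgeR) in siYAP+TAZ and 0.84 ± 0.15 (SE, adjusted p = 0.00686 by edgeR) in siTAZ. The siTAZ call was lost without siTAZ 24 (0.72, edgeR adjusted p = 0.063). Its relative GBP4 had 35.7, 37.9 and 67.6 in siControl, 36.8, 66 and 84.2 in siYAP, 89.6, 118 and 163 in siTAZ and 96.3, 117 and 299 in siYAP+TAZ. All siTAZ and siYAP+TAZ libraries of GBP4 were above siControl, and siYAP+TAZ 30 was far above the rest. GBP4 had a log2 fold change of 1.89 ± 0.44 (SE, adjusted p = 0.00962 by edgeR) in siYAP+TAZ, and 1.21 (edgeR adjusted p = 0.022) without siYAP+TAZ 30. GBP1 had 0.55 ± 0.12 (SE, adjusted p = 0.00289 by edgeR) in siYAP+TAZ and rose by 0.73 ± 0.12 (SE, adjusted p = 0.00472 by edgeR) in siTAZ. SOCS1, the inhibitor that shuts off JAK kinases, rose by 1.18 ± 0.27 (SE, adjusted p = 0.00823 by edgeR). PTPN2, a phosphatase that removes phosphate from JAK and STAT proteins, fell, with a log2 fold change of -0.34 ± 0.08 (SE, adjusted p = 0.00332 by edgeR). IFNLR1, the interferon lambda receptor chain, rose by 0.96 ± 0.24 (SE, adjusted p = 0.009 by edgeR), and TLR3, the endosomal sensor of double-stranded RNA, by 0.97 ± 0.21 (SE, adjusted p = 0.00275 by edgeR). In cytoplasmic DNA sensing, STING1 had 350.4, 388 and 345 in siControl, 474, 442 and 518 in siYAP, 419, 291 and 315 in siTAZ and 595, 627 and 564 in siYAP+TAZ, with a log2 fold change of 0.72 ± 0.11 (SE, adjusted p = 0.000254 by edgeR), whereas CGAS, the enzyme that makes its ligand, fell, with -0.38 ± 0.07 (SE, adjusted p = 0.00058 by edgeR). IKBKE, a kinase that activates IRF factors, rose by 0.59 ± 0.13 (SE, adjusted p = 0.0035 by edgeR).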

How the data were processed

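Polyadenylated RNA of 15 libraries, 5 groups of 3, was sequenced as single reads. Per the labels and the study's methods, the authors trimmed reads with cutadapt, aligned them to GRCh38 with STAR 2.4.2a in the UTAP pipeline, and counted reads per gene of GENCODE 34, and whether counting used strand is not given in the sources used here. The deposited table holds these raw counts, which were analysed here. It also holds a normalized signal, which the authors obtained by dividing counts by DESeq2 size factors, and log2 values (rlog) that the authors made with DESeq2, and neither was used for tests. Columns of the authors' own comparisons (log2 fold changes, p-values and adjusted p-values) were not used.

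Counts were fitted with edgeR 4.0.16 in R 4.3.3 (TMM, robust quasi-likelihood, 1 coefficient per group, all 15 libraries, no block), with Benjamini-Hochberg adjustment over 18858 genes. Total counts were 18696737 to 30107312 per library, and counting intervals cover counting error only. The code was tested on simulated data. Summaries used Python 3.11.15, pandas 2.3.3 and scipy 1.17.1. Gene positions, lengths and overlaps came from GENCODE 44 (GRCh38), and promoters from RefSeq (GRCh38.p14). Values in every library are given for the STAT and IRF factors, for members that passed in any of 8 comparisons, and for the most abundant member per length of each class. The members and lists were chosen with earlier results of these data known. Alternatives were DESeq2 1.42.0, its size factors, library size only, a filter of at least 10 reads in at least 3 libraries, a replicate block, Control as reference and leaving out each library. Leaving out libraries 26 to 30 was chosen after seeing the data.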

Additional observations from a re-analysis of the deposited data

How the results depend on the processing

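No value changed direction while passing the test on both sides. For siYAP+TAZ against siControl, 24 genes passed, and 24 to 26 did with DESeq2, its size factors, library size only, the filter, Control as reference or without libraries 26 to 30, and 16 to 26 when 1 library was left out. The share of all genes that passed in either direction was 18.4%, 17.7% to 23.2% under the former settings and 13.3% to 20.5% with 1 library left out. For siYAP, 2 (0.933% of all genes) became 4 with DESeq2 (2.12%), with library size only (1.1%) and without libraries 26 to 30 (1.18%), and 0 to 4 when 1 library was left out (0.143% to 1.37%). It was 3 with Control as reference (1.46%). For siTAZ, 3 (2.03%) became 7 with DESeq2 (4.25%), 10 without libraries 26 to 30 (4.68%), 6 with Control as reference (3.4%) and 1 to 7 when 1 library was left out (0.361% to 4.78%). Leaving out 1 library gave 1 to 9 against siYAP (2.12% to 6.43%) and 3 to 9 against siTAZ (2.47% to 6.66%) for siYAP+TAZ. Between siTAZ and siYAP, 0 (0.642%) became 3 with DESeq2, all lower in siTAZ (1.88%), and 0 to 4 when 1 library was left out (0.0% to 2.21%). The cause of these differences was not tested. The interaction and siControl against Control stayed at 0 under the settings named so far.

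The study repeated the whole experiment, but neither the labels nor its text ties library numbers to a repeat. Deviations from the group means correlated at -0.061 to 0.68 (median 0.455) within sets of consecutive numbers (16 to 20, 21 to 25, 26 to 30). Between sets they correlated at -0.645 to 0.488 (median -0.377). With its own set siTAZ 24 correlated at -0.061 to 0.035, so pairing was not taken as given. With a replicate block for the set, 30 genes passed in siYAP+TAZ (28 higher and 2 lower, 28.6% of all genes in either direction), 13 in siYAP (all higher, 6.1%) and 17 in siTAZ (16 higher and 1 lower, 10.3%). For siYAP+TAZ there were 17 against siYAP (16 higher and 1 lower, 14.6%) and 16 against siTAZ (15 higher and 1 lower, 14.8%). Between siTAZ and siYAP there were 8 (2 higher and 6 lower in siTAZ, 7.32%), with 1 for the interaction (0.647%) and 0 for siControl against Control (0.0053%). Depth limits CMPK2, OAS1, RSAD2, IFI44L and IRF9 most, since each had few reads.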
